A study of Homo sapiens with 28 samples.

Results

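Narrow open regions that every library called were examined in AN3CA cells, a line established from a human endometrial carcinoma. Open chromatin was profiled by ATAC-seq, in which a transposase inserts adapters into accessible DNA. Each of the 28 deposited peak lists was trimmed to its 19433 peaks of highest −log10 p on chromosomes 1 to 22 and X, and overlapping peaks of all lists were merged. The narrow regions were chosen by 2 measured properties, a call in all 28 libraries and a merged width under 1000 bp. There were 1179 of them among 9922 regions called in all libraries (11.9%) and 38468 merged regions in all. Their width and their presence in every library were therefore set by the selection and are described without a test.

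The cells carried an empty vector (Empty_vector, 4 libraries), wild-type ARID1A (ARID1A_WT) or wild-type ARID1B (ARID1B_WT), or 1 of 10 altered forms, with 2 libraries for each group other than the empty vector. The altered ARID1A forms were the truncations ARID1A_CBR and ARID1A_delIDR1, ARID1A_DBDmut with a mutated ARID domain, the hybrid ARID1A_DDX4 with the disordered region of DDX4, ARID1A_Y42S and ARID1A_AQGscramC1C2. The altered ARID1B forms were ARID1B_S320_G327del, ARID1B_A457_G461del, ARID1B_Block13del and ARID1B_Block9del. All groups share the AN3CA background, and the vector, promoter and number of clones were not stated in the labels. The genotype label of 10 libraries, those of ARID1A_AQGscramC1C2, ARID1A_Y42S, ARID1B_A457_G461del, ARID1B_Block13del and ARID1B_Block9del, names the empty vector while the title names the construct, and they were grouped by title. The series' design text describes CUT&Tag, while the titles name ATAC-seq. The labels do not say whether replicates came from separate cultures, so p-values measure the spread between these libraries, which may be technical.

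ARID1A and ARID1B are alternative large subunits of the canonical BAF (cBAF) complex, an ATP-dependent remodeler that slides and ejects nucleosomes. A regulatory site bound by transcription factors is typically a short gap in the nucleosome array. A narrow peak can come from a single such gap, and wide peaks are common at promoters and at clustered enhancers. Sites that stay open whatever remodeler is present form a reference against which remodeler-dependent sites are often set.

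Deposited lists held from 19489 peaks (ARID1A_Y42S replicate 2) to 76589 peaks (ARID1A_WT replicate 1), and the sequencing depth behind them is unknown. A date code in the peak names divided the libraries into 6 runs, named A to F. ARID1A_WT, ARID1A_CBR, ARID1A_delIDR1, ARID1A_DBDmut and Empty_vector each had 1 library in run A and 1 in run B. Run C held 2 libraries each of Empty_vector, ARID1B_WT and ARID1B_S320_G327del. Runs D (ARID1A_DDX4), E (ARID1A_Y42S and the other ARID1B deletions) and F (ARID1A_AQGscramC1C2) held no empty vector, so for their constructs the run and the difference from Empty_vector cannot be told apart.

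The narrow regions measured at least 334 bp, with a median of 836 bp. Only 8 were under 500 bp, 347 were under 750 bp, and 399 measured 900 bp or more. The peaks of all 28 libraries shared a common core in each of the 1179 regions, with quartiles of 212 and 432 bp in length (range 99 to 911). A core follows largely from the choice of short spans with a peak in every list. Regions of 1000 bp or wider also had one in 8662 of 8743 cases (99.1%), and those of 3000 bp or wider in 255 of 300. Among merged regions called in at least 2 libraries, 1179 of 16875 narrow ones (6.99%) were called in all 28, against 8743 of 16097 wider ones (54.3%). The merged width spans the peaks of all lists that call a region, so each further list can only widen it. These shares are therefore not independent of the merging.

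Rank and fold enrichment placed these regions differently. Rank 1 is the peak of highest −log10 p in its own trimmed list, and the fold enrichment is the authors' own ratio of a peak to the background estimated by the caller. The median over narrow regions of the mean rank across libraries was 8293, against 4700 for regions of 1000 to 1500 bp and 6796 for regions of 3000 bp or wider. By fold the order was the opposite at the wide end. The narrow regions had a median mean fold of 7.31, against 7.08 at 1000 to 1500 bp and 4.25 at 3000 bp or wider. They supplied 67 of the 100 regions of highest mean fold and 3 of the 100 regions of best mean rank. Of the first 992 regions, 353 were narrow when sorted by fold and 44 when sorted by rank. Across the 1179 regions, mean rank and mean fold had a Spearman correlation of -0.40, a description over regions that share libraries and are not independent.

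**Figure D1:**
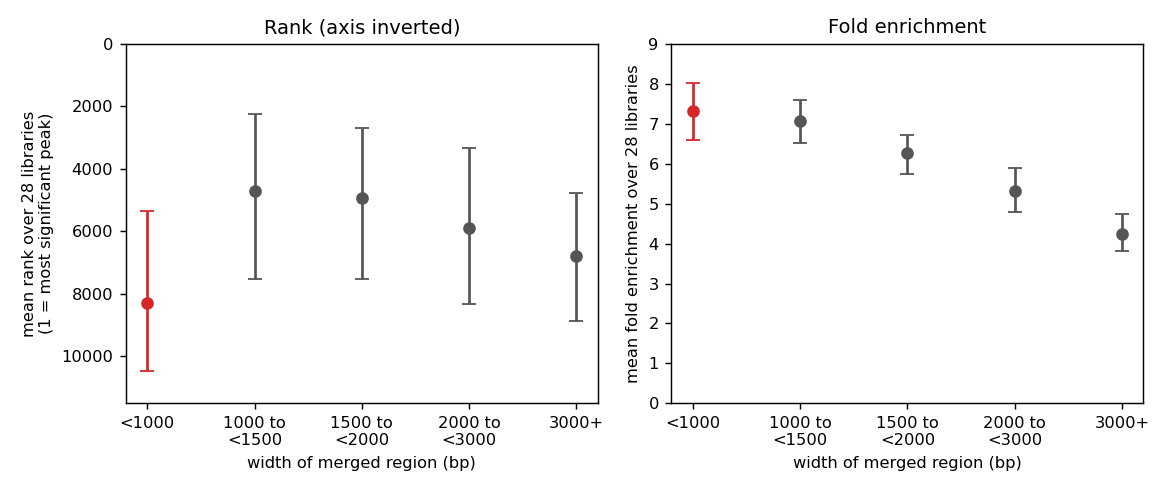
Regions called in all 28 libraries, grouped by merged width in bp. Points are medians over regions and bars the quartiles, of the mean rank (left, inverted axis) and of the mean fold enrichment (right). Regions under 1000 bp (red, n = 1179) have the numerically highest median rank, 8293, and the highest median fold, 7.31.

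The position in the list also varied more for narrow regions. Their median SD of rank over the 28 libraries was 2205, against 1558 for wider regions, and their median SD within constructs was 1728 against 1216. The CV of fold had a median of 14.4% against 11.3% for wider regions. Regions of 3000 bp or wider came near the narrow ones, with a median SD of rank of 2102 and a median CV of fold of 13.4%. The typical narrow region had a best rank of 3910 and a worst rank of 13641. Only 7 were among the first 1000 peaks of every list, and 146 were in at least 1 list.

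The 6 narrow regions of lowest mean rank were among the most significant peaks in all constructs. The region at chr7:124569469-124570308 (hg19, 840 bp) had a mean rank of 36 ± 40.6 (SD, n = 28), from 6 in ARID1A_WT replicate 2 to 221 in ARID1A_Y42S replicate 2, and a fold of 9.90 ± 0.846 (SD). It also had the smallest SD of rank of all narrow regions, although a mean rank so near 1 leaves little room for spread. Next came chr7:56101391-56102363 (973 bp), with a mean rank of 124 (range 17 to 588) and the longest common core of the set, 911 bp. The regions at chr3:93698541-93699491 (951 bp) and chr10:104613703-104614562 (860 bp) had mean ranks of 159 and 169 and the next smallest SDs, 98.9 and 137. The last of the 6, chr10:111985274-111986198 and chr14:81999785-82000575, had mean ranks of 275 and 289. In these 6 regions the highest rank number in any library was 1123, in ARID1A_DDX4 replicate 2. Which genes lie at these positions was not analysed here.

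The 6 narrowest regions stood in the middle of the lists, and their mean folds lay between 7.12 and 9.36, around and above the median of 7.31. The narrowest, chr2:201766209-201766542, spanned 334 bp with a common core of 156 bp, and its mean rank was 8489 (range 5408 to 11481) at a mean fold of 7.22. The regions at chr5:156903862-156904260 (399 bp) and chr5:129103608-129104021 (414 bp) had mean folds of 7.37 and 7.12 and mean ranks of 9525 and 10747. The region at chr21:27173694-27174160 (467 bp) combined a mean rank of 6110 with a mean fold of 9.36. At chr11:73642179-73642652 (474 bp) the mean fold was 8.68, and at chr7:148224583-148225068 (486 bp) it was 8.14. None of these 6 came within the first 3000 peaks of any list: their lowest rank number was 3443, in ARID1A_delIDR1 replicate 1.

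At the width limit, values inside and outside overlapped. The members closest below it, each 1 bp narrower than the limit, were chr19:14800324-14801322, chr2:131966475-131967473 and chr12:125179100-125180098, with mean ranks of 4540, 6015 and 10860. The closest regions left out, each 1000 bp wide, were chr3:66271106-66272105, chr3:159706163-159707162 and chr1:7764129-7765128, with mean ranks of 1424, 1830 and 11188. Mean folds ran from 4.52 to 8.10 in the former and from 6.51 to 9.59 in the latter.

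The levels of the narrow regions across constructs were compared next. In all 28 libraries the median rank number of narrow regions was higher than that of wider ones. It lay between 6725 (ARID1A_delIDR1 replicate 1) and 8871 (ARID1B_S320_G327del replicate 2), while wider regions lay between 4604 and 5806. The 4 Empty_vector libraries gave 7292, 8700, 8442 and 7746, so libraries without any construct spanned most of that range. ARID1A_CBR (6796 and 7349) and ARID1A_delIDR1 (6725 and 7125) lay under the lowest empty vector value in 3 of 4 libraries, and so did ARID1A_Y42S replicate 1 (7008; replicate 2 had 8015). ARID1B_S320_G327del replicate 2 alone lay above the highest, and replicate 1 had 8021. ARID1A_WT (8609 and 8360), ARID1A_AQGscramC1C2 (8468 and 8476) and ARID1B_WT (7861 and 7642) fell inside it.

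Median fold in narrow regions ranged from 5.21 (ARID1A_DDX4 replicate 1) to 8.33 (ARID1B_Block13del replicate 2). It exceeded that of wider regions in 25 of 28 libraries. The exceptions were ARID1A_DDX4 replicates 1 and 2, with ratios of 0.955 and 0.971, and ARID1A_Y42S replicate 2, with 0.959. Empty_vector replicate 3 followed at 1.004, while the other 3 Empty_vector libraries had 1.27, 1.20 and 1.16. These 4 libraries had the 4 shortest deposited lists, all under 25000 peaks. The other ARID1A_Y42S library, with 28883 peaks, had a ratio of 1.19. Peak width moved the same way: the median peak in a narrow region spanned 379 bp in ARID1A_Y42S replicate 2 and 403 and 437 bp in ARID1A_DDX4, against 757 bp in ARID1A_CBR replicate 2. The part of list length in these values was not tested.

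**Figure D2:**
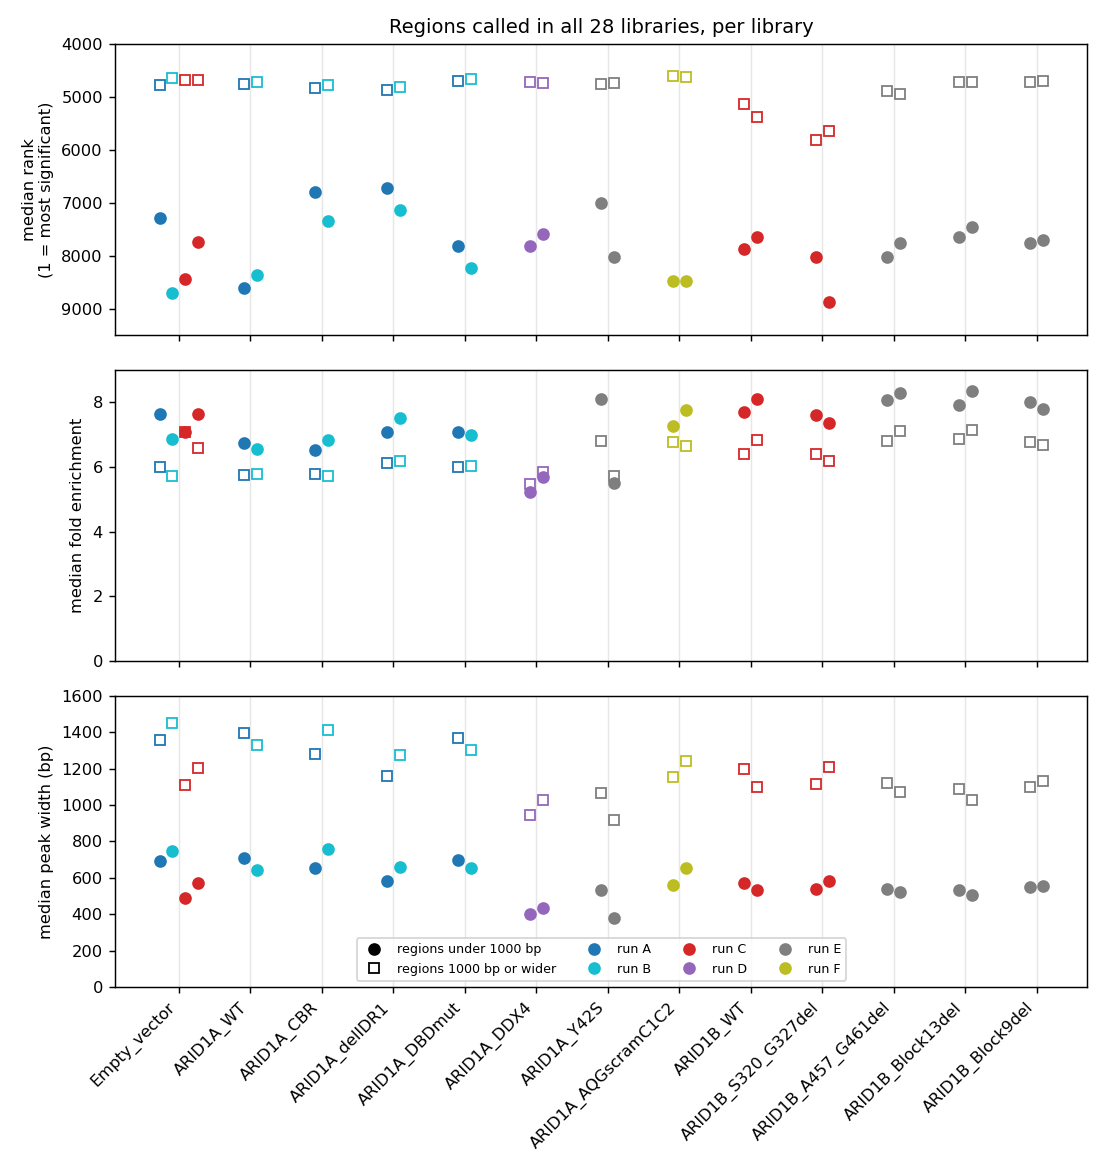
Median rank (inverted axis, 1 = most significant), fold enrichment and peak width per library, for regions under 1000 bp (filled circles) and 1000 bp or wider (open squares) that all 28 libraries called; colours are runs. Narrow regions sit lower in rank in every library, and their fold exceeds that of wider regions in 25 of 28.

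The order of the narrow regions was similar between libraries of a construct. The Spearman correlation of ranks over the 1179 regions had a median of 0.79 for 9 pairs of the same construct in the same run and 0.85 for 9 pairs of the same construct in different runs. It was 0.76 for 56 pairs of different constructs in 1 run and 0.69 for 304 pairs that shared neither. These values describe how lists with shared regions resemble each other and carry no test.

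To ask whether a wild-type subunit moved these regions, ARID1A_WT and ARID1B_WT were set against Empty_vector. Ranks were fitted with limma over all 9922 regions called in all libraries, with Benjamini-Hochberg adjustment over all of them and a threshold of 0.05. The fit held all 28 libraries in 13 groups and had no run term. Its spread therefore also drew on the altered constructs and on differences between runs within a group. Of the narrow regions, 64 (5.43%) differed, 36 toward the top of the list (3.05%) and 28 toward the bottom (2.37%). Over all widths 4.9% of regions were called, 1.61% toward the top and 3.29% toward the bottom. The share of narrow regions called in either direction was close to this background in total. It was higher than the background toward the top and lower toward the bottom. The median difference in rank number was 347 in narrow regions and 319 over all widths, with a median SE of 1203 in narrow regions. The median size of the called differences was 6603 ranks toward the top and 4721 toward the bottom.

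The split between directions depended on the scale. It was 54 to 4 when regions were ranked again among the 9922 only, 46 to 19 on log2 ranks, and 113 to 0 with the rank as a percent of the whole list. Ranking by fold enrichment turned it, with 9 toward the top and 34 toward the bottom. On these other scales the calls over all widths were not counted, here or in the comparisons below. Whether these splits are particular to narrow regions therefore cannot be told. The 28 toward the bottom became 11 without Empty_vector replicate 1, 16 without Empty_vector replicate 4, 18 without Empty_vector replicate 3 and 16 without ARID1A_WT replicate 2.

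A stricter set was formed by the narrow regions called in wild type against Empty_vector whose 4 wild-type and 4 Empty_vector libraries did not overlap in rank. Without overlap the difference must have the same sign in the A and B comparison and in that of run C. That agreement therefore adds nothing, and the lack of overlap in the regions below is part of their selection. The stricter set held 31 regions that moved toward the top (2.63%, against a background of 1.32% of all widths) and 18 that moved toward the bottom (1.53%, against 1.82%). The 8 of largest difference in each direction are described here.

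The largest move toward the top was at chr3:48777270-48778180 (911 bp). Its ranks were 7494 and 5365 in ARID1A_WT, 4320 and 2279 in ARID1B_WT, and 16372, 16349, 18660 and 17633 in Empty_vector. As the selection required, every wild-type library placed it in front of every empty vector library. The rank number fell by 12389 ± 1166 (SE, adjusted p = 7.71e-07), and folds were 6.09 to 8.10 with wild type against 4.62 to 5.72 without. Among altered constructs it ranged from 1990 in ARID1B_S320_G327del replicate 1 to 18992 in ARID1A_AQGscramC1C2 replicate 2.

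At chr3:113871020-113872003 (984 bp) the ranks were 3812 and 5056 in ARID1A_WT, 1025 and 1351 in ARID1B_WT, and 12576, 15178, 13706 and 14025 in Empty_vector. This region moved from the far part of the list to its front with ARID1B_WT. The rank number fell by 11060 ± 875 (SE, adjusted p = 7.33e-08), and folds were 7.62 to 9.65 against 5.55 to 6.61. ARID1B_S320_G327del replicate 2 had it at rank 454, the lowest rank number of any library.

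At chr10:99628832-99629646 (815 bp) the ranks were 8702 and 6830 in ARID1A_WT, 5812 and 4251 in ARID1B_WT, and 17019, 15764, 18684 and 17335 in Empty_vector. Both wild-type groups were clear of the empty vector, and ARID1B_WT stood ahead of ARID1A_WT. The rank number fell by 10802 ± 1254 (SE, adjusted p = 1.26e-05).

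At chr15:63902409-63903256 (848 bp) the ranks were 1873 and 3771 in ARID1A_WT, 908 and 1310 in ARID1B_WT, and 9608, 10506, 17170 and 9688 in Empty_vector. Empty_vector replicate 3 stood apart from the other 3. The rank number fell by 9778 ± 1233 (SE, adjusted p = 2.42e-05).

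At chr6:37758988-37759692 (705 bp) the empty vector libraries lay close together, at 14470, 14181, 15022 and 14410. The ranks were 4578 and 6245 in ARID1A_WT and 6221 and 3359 in ARID1B_WT, a fall of similar size with either subunit. The folds overlapped, at 5.48 to 8.54 with wild type and 5.17 to 5.90 without. The 3 others, chr19:49600738-49601482, chr11:76518172-76518951 and chr1:66648273-66649197, had differences of -9209, -8565 and -8429 ranks.

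Moves toward the bottom were smaller. At chr5:50678668-50679633 (966 bp) the ranks were 14244 and 18252 in ARID1A_WT, 17766 and 14841 in ARID1B_WT, and 6917, 5544, 8318 and 12563 in Empty_vector. The groups did not overlap, although Empty_vector replicate 4 came near. The rank number rose by 7940 ± 1405 (SE, adjusted p = 0.0012). Folds overlapped, at 5.21 to 6.95 with wild type and 6.34 to 7.67 without.

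At chr11:66095604-66096559 (956 bp) the ranks were 14133 and 13004 in ARID1A_WT, 17244 and 15658 in ARID1B_WT, and 7269, 9695, 7677 and 10059 in Empty_vector, a rise of 6335 ± 1122 (SE, adjusted p = 0.00121). At chr15:68155637-68156495 (859 bp) they were 12980 and 12578, 12711 and 9254, and 6323, 6797, 7640 and 6590 in the same order. There the empty vector libraries were the closest together of these 8 regions, and folds did not overlap either (5.18 to 6.66 against 7.76 to 8.86). The 5 others, chrX:152200612-152201609, chr17:75327408-75328175, chr10:96039557-96040287, chr2:20490863-20491853 and chr20:49923096-49923813, had rises of 6012, 5695, 5504, 5194 and 5033 ranks. As a percent of the whole list, the difference of all 8 turned negative, with no adjusted p under 0.05.

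**Figure D3:**
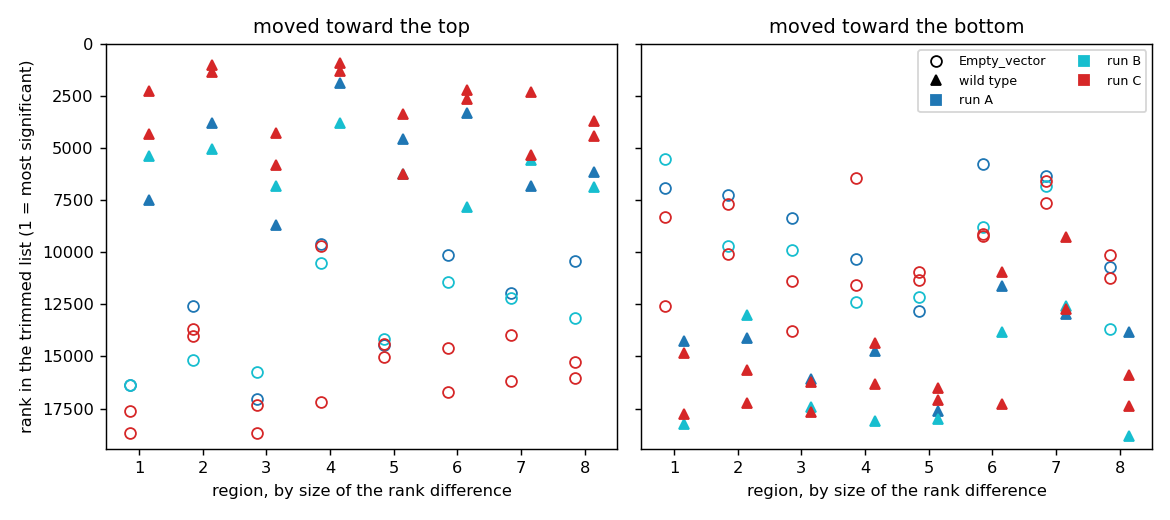
Ranks of the 8 narrow regions with the largest moves toward the top (left) and toward the bottom (right) in wild type against Empty_vector, numbered by size of difference; open circles are Empty_vector, triangles wild type, colours runs A, B and C. Within each region no triangle overlaps the circles, since the regions were selected for this. In the first region wild type lies at 2279 to 7494 and Empty_vector at 16349 to 18660.

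Each wild-type subunit was then compared with the empty vector of its own runs, in fits of the libraries of those runs only. With ARID1A_WT in runs A and B, 31 narrow regions (2.63%) differed, 18 toward the top and 13 toward the bottom. The background over all widths was 1.61%, with 0.877% toward the top and 0.736% toward the bottom. The median difference was 655 ranks in narrow regions and 86.5 over all widths, with a median SE of 1185 in narrow regions. On log2 ranks the split was 17 to 17, by fold 3 to 19, ranked again 14 to 6, and as percent of the whole list 25 to 0. The 31 called became 16 and 11 without ARID1A_WT replicate 1 or 2, and 6 and 5 without Empty_vector replicate 1 or 2. Each of those fits left 1 library in a group, which was assumed to vary like the other groups.

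With ARID1B_WT in run C, 12 narrow regions (1.02%) moved toward the top and 0 toward the bottom by the same limma test. The background was 0.443%, with 0.403% toward the top and 0.0403% toward the bottom. At an unadjusted p under 0.05 the counts were 96 toward the top and 61 toward the bottom, together 13.3% against 12.5% over all widths. Of the 16 regions described above, 7 of the 8 toward the top had an adjusted p under 0.05 in this comparison. The exception was chr6:37758988-37759692, with 0.0506. In the 8 toward the bottom the adjusted p by limma lay between 0.200 and 0.536. All 16 were selected with these same ARID1B_WT and Empty_vector libraries among others, so these values are no separate support. No call remained without either ARID1B_WT library (163 and 125 at an unadjusted p under 0.05). There were 3 calls without Empty_vector replicate 3 and 6 without replicate 4. By fold the split was 3 to 6, and as percent of the whole list 840 to 0.

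The ARID1A_WT and ARID1B_WT shifts rest on different control libraries. They had the same sign in 725 of 1179 narrow regions (61.5%) and in 56.5% of regions of all widths. Their Spearman correlation was 0.32 over narrow regions and 0.21 over all widths, given as a description. A direct test of the difference between the shifts called 1 narrow region (0.0848%, background 0.0806%, limma), with 131 at an unadjusted p under 0.05 (11.1%, background 11.9%). That region, chr10:75725515-75726512 (998 bp), had ranks of 859 and 663 in ARID1A_WT, 2847 and 3022 in Empty_vector replicates 1 and 2, 2512 and 4266 in ARID1B_WT, and 18514 and 18293 in Empty_vector replicates 3 and 4, from run C. All wild-type libraries placed it early, and the empty vector libraries differed by run. The difference between the shifts was 12841 ranks (adjusted p = 0.000447).

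**Figure D4:**
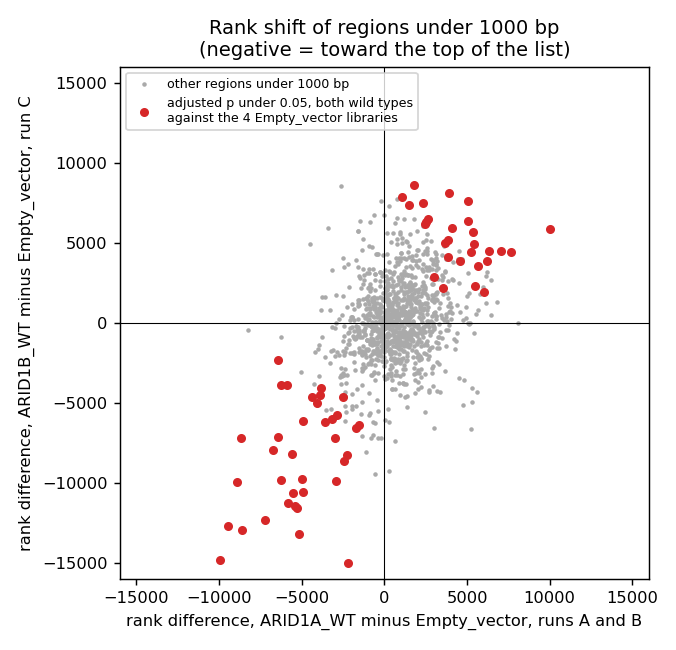
Rank difference from Empty_vector of each narrow region (n = 1179), with ARID1A_WT in runs A and B on the horizontal axis and ARID1B_WT in run C on the vertical axis; red marks the 64 regions called with both wild types against all 4 Empty_vector libraries. The shifts had the same sign in 725 regions; the red points were chosen on the average of the axes.

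The size of a difference without any change of construct was read from the Empty_vector libraries. Replicates 1 and 2, from runs A and B, differed from replicates 3 and 4 in 11 narrow regions (0.933%), with a background of 1.01%. The median difference was -200 ranks in narrow regions. There were 0 calls by limma without Empty_vector replicate 1 or 2 (131 and 115 at an unadjusted p under 0.05), 5 without replicate 3 and 53 without replicate 4. The share of narrow regions called between runs was near the 1.02% of ARID1B_WT in run C, where the background was lower, at 0.443%. The fits held different numbers of libraries, so these shares are not directly comparable.

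Of the altered constructs, the truncations ARID1A_CBR and ARID1A_delIDR1 had the largest shares of narrow regions called toward the top when set against controls of the same run. With ARID1A_CBR against Empty_vector in runs A and B, 39 narrow regions (3.31%) differed, 35 toward the top and 4 toward the bottom. The background was 1.1%, with 0.826% toward the top and 0.272% toward the bottom. With ARID1A_delIDR1, 30 narrow regions (2.54%) differed, 29 toward the top and 1 toward the bottom, with a background of 0.947%, 0.857% and 0.0907%. Median differences in narrow regions were -473 and -558 ranks, against 78.0 and 116 over all widths, and their median SE was 1185. The comparisons share their 2 control libraries with each other and with ARID1A_WT.

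The largest moves with these truncations were at the same pair of regions, named after their values were seen. At chr3:50301727-50302694 (968 bp) the ranks were 3652 and 6060 in ARID1A_CBR, 5573 and 5698 in ARID1A_delIDR1, 8741 and 10758 in ARID1A_WT, and 17453 and 18501 in the Empty_vector libraries of the same runs. In run C the empty vector gave 9341 and 9491, near ARID1A_WT. Its mean fold, 3.39, was the lowest of all narrow regions. At chr6:37758988-37759692 ARID1A_CBR gave 2070 and 3292 and ARID1A_delIDR1 3415 and 4193, ahead of the ranks of ARID1A_WT given above.

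These counts rested on the ranking by −log10 p. Ranked by fold, ARID1A_CBR had 1 narrow region toward the top and 1 toward the bottom, and ARID1A_delIDR1 had 0 and 2. Leaving out ARID1A_CBR replicate 1 or 2 left 2 and 8 calls, and leaving out ARID1A_delIDR1 replicate 1 or 2 left 5 and 3. Without Empty_vector replicate 1 the calls were 6 and 11, and without replicate 2 they were 3 and 6, for ARID1A_CBR and ARID1A_delIDR1.

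ARID1A_DBDmut, in the same runs, differed in 7 narrow regions (0.594%, background 0.343%). In run C, ARID1B_S320_G327del differed from Empty_vector in 21 narrow regions (1.78%, background 1.17%), 18 toward the top and 3 toward the bottom. Over all widths 75 were called toward the top and 41 toward the bottom. Against ARID1B_WT, ARID1B_S320_G327del differed in 0 narrow regions (background 0%) by limma, with 130 at an unadjusted p under 0.05. The median difference between these was 518 ranks in narrow regions, with quartiles of -796 and 2060.

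**Figure D5:**
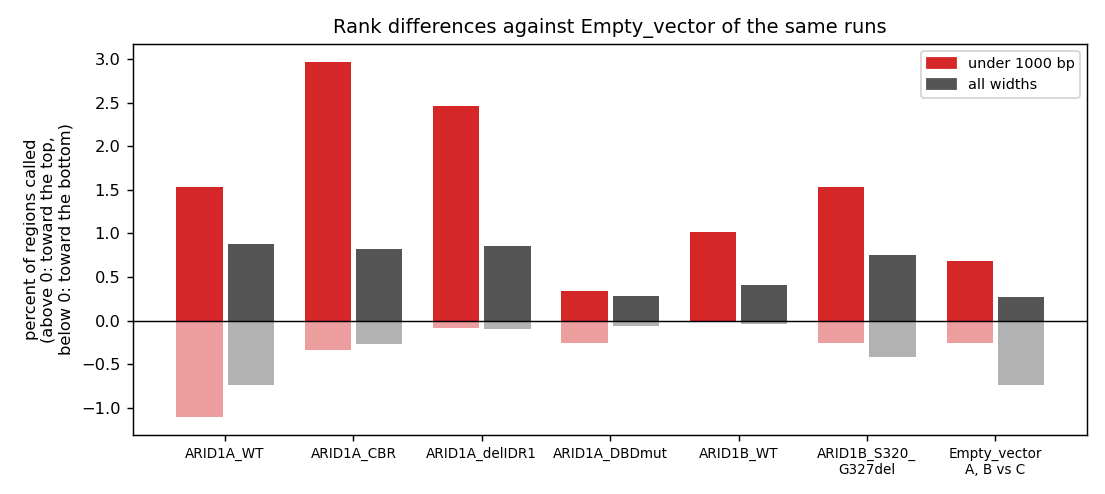
Percent of regions with an adjusted p under 0.05 (limma on ranks) against Empty_vector of the same runs, for regions under 1000 bp (red) and all widths (grey); bars above 0 moved toward the top, paler bars below 0 toward the bottom. The last pair compares Empty_vector replicates 1 and 2 with replicates 3 and 4. ARID1A_CBR and ARID1A_delIDR1 have the tallest red bars, 2.97% and 2.46%.

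Against all 4 Empty_vector libraries, in a fit of all 13 groups, 335 narrow regions (28.4%) differed in at least 1 altered construct, with a background of 32.1%. ARID1B_S320_G327del made the largest part, with 237 narrow regions (20.1%, background 23.6%), 67 toward the top and 170 toward the bottom. Over all widths 268 were called toward the top and 2074 toward the bottom. The median difference was 626 ranks in narrow regions and 959.5 over all widths, so much of the list shifted. Against the run C controls alone its calls were mostly toward the top, as given above. Next were ARID1A_DDX4 with 72 (6.11%, background 5.47%), ARID1B_A457_G461del with 71 (6.02%, background 7.01%), ARID1A_CBR with 45 (3.82%, background 1.44%) and ARID1A_delIDR1 with 31 (2.63%, background 1.17%). Counts were lower for ARID1B_Block13del with 17 (1.44%, background 1.61%), ARID1A_Y42S with 13 (1.10%, background 1.57%), ARID1A_DBDmut with 3 (0.254%, background 0.202%), ARID1A_AQGscramC1C2 with 2 (0.170%, background 0.0302%) and ARID1B_Block9del with 1 (0.0848%, background 0.0806%). Apart from ARID1A_CBR, ARID1A_delIDR1 and the 2 regions of ARID1A_AQGscramC1C2, the share of narrow regions was within 1.5 times the background in either direction. With controls of the same run only, for the 4 altered constructs that have them, 62 narrow regions (5.26%, background 2.48%) were called in at least 1. Whether constructs differ from each other in these counts was not tested.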

How the data were processed

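The 28 broad peak lists, 1 per library, were used as deposited. The submitters' processing notes name bcl2fastq, MACS2, SAMtools 0.1.19, Picard 2.8.0, Bowtie2 and hg19 (caller options, filters and cut-site offsets: not given in the sources used). A deposited peak carries a score, a fold enrichment (a ratio over the caller's background), a −log10 p and a −log10 q, all the authors' own. A list shows a region only where a peak passed the caller's threshold, and a broad peak's values are averages over its length, so width bears on them.

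Lists were restricted to chromosomes 1 to 22 and X, trimmed to the 19433 peaks of highest −log10 p (the shortest list) and merged (overlap of at least 1 bp). The best peak of a library stood for a region. Ranks were fitted with limma 3.58.1 (R 4.3.3, mean-variance trend, Benjamini-Hochberg over 9922 regions, threshold 0.05), tested on simulated data; a run term was used in runs A and B. Folds were described only. The members and lists were chosen with earlier results of these data known. Named regions are the 6 of lowest mean rank, the 6 narrowest, the 3 of smallest SD, the 8 largest moves each way among the stricter set, and the 3 nearest each side of the width limit; others are named as chosen after. Alternatives were other rankings, widths, overlaps, left-out libraries and a replicate block. Gene positions, base composition and motifs were not analysed here because no hg19 genome was used.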

Additional observations from a re-analysis of the deposited data

Results flagged for a closer look

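In 40 sets of 4 Empty_vector values tested for a library far from the others, 2 passed Dixon's 95% limit for 4 samples, and chance gives about 1 in 20. At chr15:63902409-63903256 Empty_vector replicate 3 had rank 17170 while the other 3 lay between 9608 and 10506, a gap of 0.881 of the whole range. At chr2:20490863-20491853 Empty_vector replicate 1 had rank 5753 while the other 3 lay between 8775 and 9201, a gap of 0.876 of the range.

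The ARID1A_WT and ARID1B_WT shifts, each against the empty vector of its own runs, differed in 1 narrow region, chr10:75725515-75726512, by an interaction contrast in limma chosen after seeing the data. The rank number fell by 2174 with ARID1A_WT and fell by 15014 with ARID1B_WT. The Empty_vector libraries stood at 2847 and 3022 in runs A and B and at 18514 and 18293 in run C.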

How the results depend on the processing

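The number of narrow regions was 1180 to 1269 when a library was left out, 308 with lists trimmed to the length of 9716 peaks, 2584 with whole lists, 380 when a call needed 50% of the region, and 347 and 2698 with a lower (750 bp) and a higher width limit. Ranking by fold (1304) or −log10 q (1182) kept it within 1.5 times. By fold, however, only 5212 regions of any width were called in all libraries, against 9922 in the main setting. The narrow share was therefore larger, and whether the same regions were narrow was not counted.

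The percent of narrow regions called in wild type against Empty_vector was 3.73 to 6.11 without each library and 9.58 as percent of the whole list. With ARID1A_WT in runs A and B it was 1.15 under 750 bp, 1.70 ranked again, 1.58 with the 50% rule and 0.424 to 1.36 without each library. With ARID1B_WT in run C it was 0.576 and 0.667 with the lower and the higher width limit, 0.254 ranked again, 1.95 on log2 ranks, 71.2 as percent of the whole list, and 0 to 0.509 without each library. Between Empty_vector runs it was 0 ranked again (199 at an unadjusted p under 0.05, limma), 4.16 on log2 ranks, 0 by fold (191), 37.7 as percent of the whole list, 1.58 with the 50% rule and 0 to 4.50 without each library. ARID1B_S320_G327del against ARID1B_WT gave 0 in all settings, with 13 to 258 at an unadjusted p under 0.05.

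For ARID1A_CBR it was 1.89 with the higher width limit, 5.85 on log2 ranks, 0.170 by fold, 2.12 as percent of the whole list and 0.170 to 0.679 without each library. For ARID1A_delIDR1 these were 1.52, 5.09, 0.170, 1.19 and 0.254 to 0.933, and 1.19 ranked again; these alternatives were chosen after seeing the data. For any altered construct it was 21.5 to 30.6 without each library, 47.2 as percent of the whole list and 5.26 with controls of the same run, an alternative added later. List lengths enter the percent of the whole list by its construction; the cause of the other changes was not tested.

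As percent of the whole list the 8 regions toward the bottom turned negative: -0.984 at chr5:50678668, -2.43 at chr11:66095604, -7.33 at chrX:152200612, -4.16 at chr17:75327408, -7.79 at chr10:96039557, -4.32 at chr2:20490863, -2.35 at chr15:68155637 and -7.62 at chr20:49923096. Of the 16 regions described, 9 had an adjusted p under 0.05 by limma when ranked again and 7 by fold, with no change of sign. Ranked again, these were all 8 toward the top and, of those toward the bottom, only chr5:50678668 (0.0197). By fold, only chr15:68155637 (1.21e-05) remained of those toward the bottom. Of those toward the top, chr15:63902409 (0.315) and chr1:66648273 (0.151) did not pass by fold. With a replicate block 4.24% of narrow regions (29 toward the top, 21 toward the bottom) differed in wild type against Empty_vector, 12 of the 16 among them, and 0.933% with ARID1B_WT in run C. Deviations of same-numbered libraries had a median correlation of -0.01 in runs A and B (20 pairs, not all independent). There the number coincides with the run, which was a term in the fits within runs A and B. In the other main fits, numbers were not taken to pair libraries. The share near a gene start was not run, since no hg19 annotation was used. Depth is unknown, so no limit on low values can be given.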

Other observations

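Narrow regions made up different shares of the regions called in all libraries along the genome. The share was highest on chromosome 10, at 84 of 504 (16.7%), and lowest on chromosome 18, at 8 of 132 (6.06%), against 11.9% over all chromosomes. Chromosome X had 27 narrow regions of 176 (15.3%) and 0 of 3000 bp or wider. The copy number of these chromosomes in the cells was not analysed here.

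Distances were measured among merged regions called in at least 2 libraries. The nearest other such region lay at a median distance of 13858 bp from narrow regions, 9531 bp from regions of 3000 bp or wider and 16262 bp over all widths. Within 10000 bp another such region was found for 38.7% of narrow regions and 51.3% of the widest ones. The narrow region of highest mean fold, named after its value was seen, was chr17:44657053-44657630 (578 bp), with a mean fold of 11.2 and a mean rank of 8155.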
